A study of Mus musculus with 80 samples.

Results

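The cytosolic ribosomal protein genes were described in mouse germ cells of the postnatal testis. A row of the deposited tables was a member if its symbol was Rpl or Rps followed by a number and at most 1 letter (a, x, y or l), or was Rplp0, Rplp1, Rplp2 or Rpsa. Mitochondrial ribosomal proteins (Mrpl and Mrps rows) were left out. The rule found 77 members, 45 of the large subunit and 32 of the small, among 27128 rows. Several ribosomal proteins stand in the tables under older symbols and so were no members by the rule. Rplp0 is the row Arbp, Rpl10l is EG238217, Rpl39l is 4930517K11Rik, Rps4l is 1110033J19Rik, Rack1 is Gnb2l1, and Rpl12 has no row.

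The cells came from male mice of strain B6;CBA-Tg(Pou5f1-EGFP)2Mnn/J at postnatal day 5.5. Every group carries this transgene, in which Oct4 (Pou5f1) regulatory sequence drives green fluorescent protein, and cells were sorted on its fluorescence. A first table held 2 libraries of CD87 positive cells and 2 libraries of CD87 negative cells, amplified from extracted RNA with Smart-seq2. CD87, the product of Plaur, is the cell surface receptor for urokinase. A second table held 71 single cells that were Oct4-GFP positive and negative for the receptor KIT, captured on a Fluidigm C1 machine, with a deposited assignment to Clusters I to IV. Another 5 libraries of the series were not analysed here. The labels do not say whether the libraries of a group are from different animals, and the spread that the p-values rest on may therefore be technical. The cells count as 1 sample, so differences between clusters are described without a test.

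A ribosome is built of a large and a small subunit, each a core of ribosomal RNA clothed with proteins that are mostly needed in equal numbers. Most vertebrate ribosomal protein mRNAs begin with a C followed by a run of C and T, the 5′ terminal oligopyrimidine (TOP) motif, through which mTORC1 and Larp1 control their translation together. Male germ cells carry autosomal copies of X-linked ribosomal protein genes, such as Rpl10l and Rpl39l, which serve when the X chromosome is silenced in meiosis. The genes have also left many processed copies in the genome, most of them annotated as pseudogenes.

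These copies bear on every level given here, because a short read can fit both a gene and its copy. Among the rows of the tables, 538 were related to a member, by a RefSeq name such as Rpl31-ps8 or by a transcript at least 90% identical over at least 60% of the member's coding sequence. They belonged to 72 members. Rpl3l, Rpl8, Rpl41 and Rps27l were among the 5 members with none. Of 6802 rows with provisional LOC or EG symbols, 2752 had no RefSeq entry, and copies among those were not recognised. The likeness is shown for 3 members whose own rows held little of the signal. Each pair below is a stretch of 60 bases of coding sequence, 5′ to 3′, from the GENCODE M21 transcripts of GRCm38, with the base that differs in capitals.
Rpl26: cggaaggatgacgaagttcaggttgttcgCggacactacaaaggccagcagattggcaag
Gm15772: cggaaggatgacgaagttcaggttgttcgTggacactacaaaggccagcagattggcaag
Rpl21: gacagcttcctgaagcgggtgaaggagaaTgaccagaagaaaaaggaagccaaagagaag
Gm10163: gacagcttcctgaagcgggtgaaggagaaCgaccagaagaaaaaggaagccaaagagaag
Rpl3: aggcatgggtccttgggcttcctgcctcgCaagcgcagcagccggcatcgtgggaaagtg
Rpl3-ps1: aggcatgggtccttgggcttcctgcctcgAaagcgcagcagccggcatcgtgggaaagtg
Positions count from 1 at the A of the start codon, with the member's base given first. Rpl26 and Gm15772 differ over 438 bases at C177T and T288C, and their longest identical stretch runs 176 bases. Rpl21 and Gm10163 differ at T336C and T432C, and Rpl3 and Rpl3-ps1 at C57A and T786C, with identical stretches of up to 335 and 728 bases. Rpl27, Rpl27a, Rpl31, Rps23, Rps29, Rpl10a and Rps27 each had a related row that was identical over the whole aligned coding sequence.

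The start sites were read from RefSeq (GRCm38.p6), where 56 of 77 members matched with 68 start sites. The windows below run from 12 bases before the annotated start to 18 bases from it on the gene's strand, with the longest run of C and T that reaches within 10 bases of the start in capitals. They are shown for members that recur in the results.
Rps6, chr4:86857350-86857379, minus strand: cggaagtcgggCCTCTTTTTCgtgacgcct
Rpl15, chr14:18270969-18270998, minus strand: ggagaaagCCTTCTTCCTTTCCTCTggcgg
Rpl28, chr7:4792953-4792982, plus strand: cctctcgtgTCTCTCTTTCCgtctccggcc
Rps27, chr3:90213631-90213660, minus strand: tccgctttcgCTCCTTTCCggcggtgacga
Rpl39, chrX:37085205-37085234, minus strand: aagctccgcctctagcgaCTTCTTCTaatc
Rps4x, chrX:102189374-102189403, minus strand: aggctgggcggagcaaCCCaggctccagcg
Rpl10, chrX:74270804-74270833, plus strand: gttacagtggaagataggccgCCTatataa
The runs are 10, 17, 11, 9 and 8 bases long in Rps6, Rpl15, Rpl28, Rps27 and Rpl39, and 3 bases long in Rps4x and in Rpl10. At least 6 bases of C or T in a row lay wholly within 10 bases of the start in 30 of the members' 68 start sites (44.1%), against 20.2% of 32851 start sites in RefSeq. The letters CTCTTT stood on the gene's strand within 20 bases of the start in 9 of 68 (13.2%), against 1.54% of all. On the other strand they stood in 0 of 68, against 1.43% of all. The letters CCGGAAG, searched on both strands from 250 bases before to 50 bases after the start, were found in 25 of 68 (36.8%), against 8.86% of all. TATAAA between 40 and 20 bases before the start was found in 0 of 68, against 1.87%. A match is a match of letters only, and annotated starts can lie off the starts used in these cells.

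Ribosomal protein genes were among the most abundant transcripts of the sorted cells. In TPM (a level scaled for transcript length, so that genes can be compared with each other), 49 of the 100 rows with the highest mean over the 4 libraries were members, and 59 were members or their related rows. The members nevertheless spread widely. Mean levels had a median of 927 TPM and quartiles of 416 and 1314 TPM, with 33 members at 1000 TPM or more and 7 under 100 TPM. The depth behind these values is unknown, since TPM does not keep it.

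**Figure D1:**
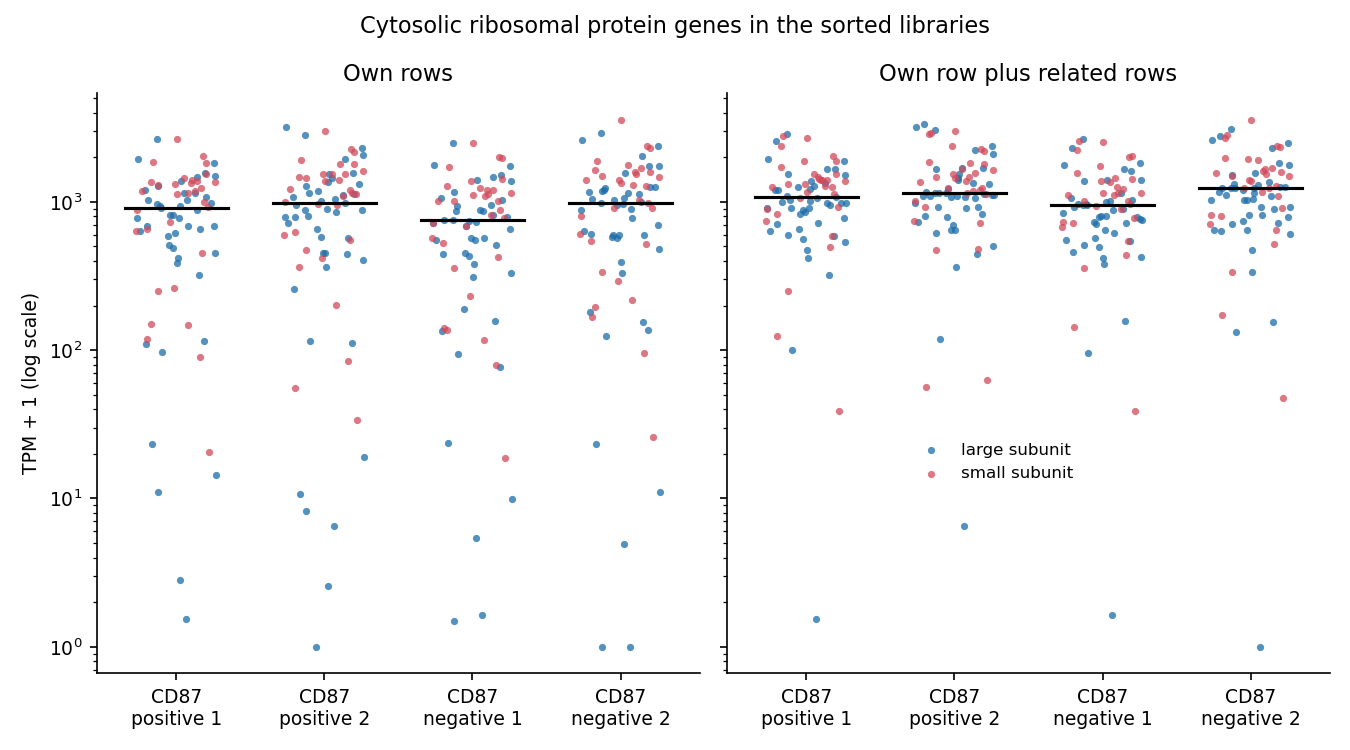
TPM + 1 (log axis) of the 77 members in each sorted library, for own rows (left panel) and for own rows plus related rows (right panel), with CD87 positive libraries left of CD87 negative ones. Points are members, blue for the large and red for the small subunit, and bars are medians, which for own rows were 907 and 977 TPM in CD87 positive libraries, against 748 and 978 TPM in CD87 negative libraries.

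Among the highest members, Rplp1, a partner in the stalk dimers that recruit elongation factors, stood at 2640 and 2805 TPM in CD87 positive libraries, against 2492 and 2912 TPM in CD87 negative libraries. Rpl41, whose protein is the shortest of the ribosome, stood at 1951 and 3184 TPM, against 1764 and 2599 TPM. In both genes the ranges of the groups overlapped. Rps14, of the small subunit platform, averaged 2175 TPM over the 4 libraries and Rps2, near the mRNA entry site, 2073 TPM.

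The lowest members were not low once their copies were counted. Rpl21 averaged 2.95 TPM in its own row and 1213 TPM with its related rows, of which Gm10163 alone held 1161 TPM. Rpl3, which lines the peptidyl transferase centre, averaged 4.46 TPM against 609 TPM with its related rows, Rpl31 12.6 against 938 TPM, and Rpl27a 19.2 against 1042 TPM. Gm15772 averaged 2567 TPM, and its parent Rpl26 169.9 TPM. An own row held under 10% of the sum for 6 members and under 50% for 11, and over 90% for 41. There were 2 members that kept a low level when copies were summed. Rpl3l, the striated muscle paralog of Rpl3, averaged 1.68 TPM, and Rps6, the substrate of S6 kinase, averaged 23.8 TPM alone and 46.1 TPM with related rows. Summing narrowed the spread between members, with an SD of mean log2 levels of 1.40 against 2.11 for own rows, and the median became 1105 TPM. These sums, and all other values with related rows added, were chosen after the data were seen. What the rows of copies hold, reads of the gene or transcripts of the copy, cannot be told apart in these tables.

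**Figure D2:**
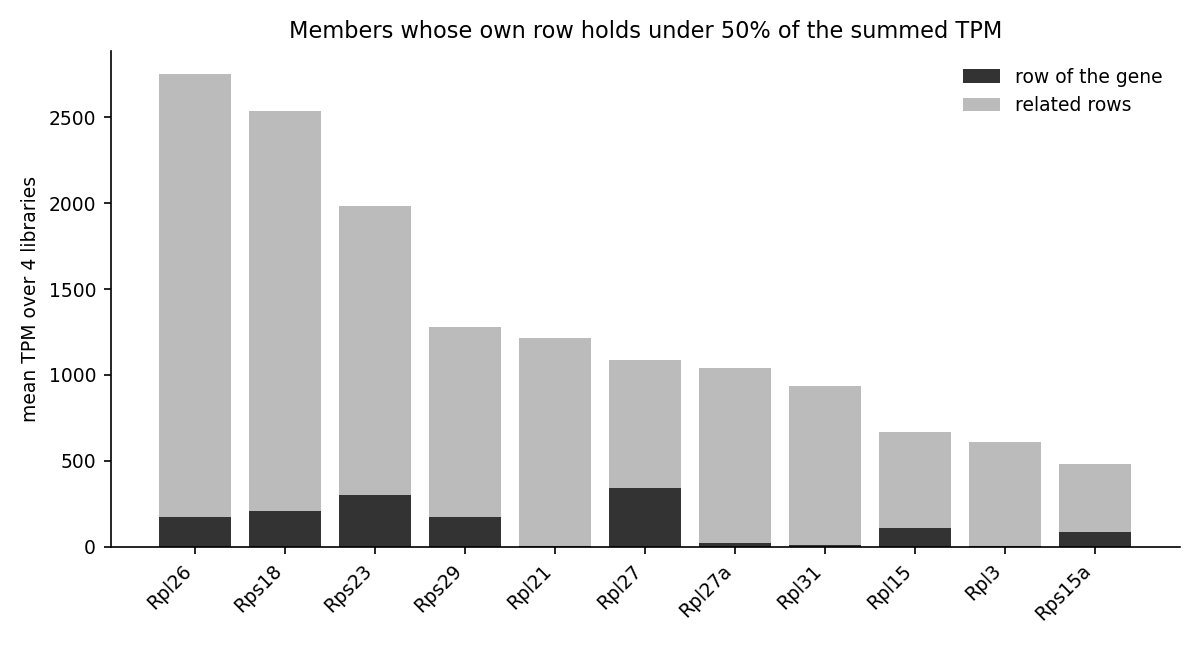
Mean TPM over the 4 libraries (linear axis) of the 11 members whose own row held under 50% of the sum, stacked as the row of the gene (dark) and its related rows (light), in falling order of the sum. The dark part is barely visible for Rpl21, Rpl3, Rpl31 and Rpl27a, whose sums lie between 609 and 1213 TPM.

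CD87 positive cells were then compared with CD87 negative cells, a comparison of cells with more and less of the surface protein CD87. Plaur itself read 3.53 and 8.92 TPM in CD87 positive libraries, against 0.46 and 0.97 TPM in CD87 negative libraries. CD87 positive library 2 stood apart, with 12063 rows above 0 against 15147 to 16267 in the other libraries. The summed level of 10 listed germ cell identity genes overlapped between the groups, at 787 and 908 TPM in CD87 positive libraries, against 707 and 846 TPM in CD87 negative libraries. Of these genes, 8 of 10 were above 0 (median log2 difference 0.20), against 51% of all tested genes. The groups did not overlap for 3 higher and 1 lower, against 20.4% and 14.5% of all tested genes. Of the listed self-renewal genes, 12 of 12 tested were above 0 without overlap (median 1.35), and of the genes of differentiating spermatogonia 2 of 11 were above 0 (median -0.49). Testing required at least 1 TPM in at least 2 libraries. For 2 of the 12 self-renewal genes and 1 germ cell identity gene, only CD87 positive libraries met this. Such genes could only come out higher and without overlap, and the counts and medians include them. None of the 3 lists had a gene called by limma at the adjusted threshold, and at an unadjusted p under 0.05 limma gave 2, 8 and 3 genes, against 4.95% of all genes. Their part in the results on ribosomal proteins was not tested. The row LOC672857 alone took 24.2% and 23.9% of the TPM sum in CD87 positive libraries and 31.2% and 24.9% in CD87 negative libraries. In bulk libraries, fewer cells of a type and less RNA per cell cannot be told apart.

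The summed level of the ribosomal protein genes did not separate the groups. The listed TPM added up to 584064 and 635203 in CD87 positive libraries, against 580440 and 610573 in CD87 negative libraries. These sums fall short of the 1000000 of a full TPM scale, so all shares are shares of the listed rows. The members made up 11.9% and 12.4% of the TPM sum in CD87 positive libraries, against 10.6% and 12.8% in CD87 negative libraries. The CD87 positive values lay between the CD87 negative ones. Means were 12.1% ± 0.315 in CD87 positive cells and 11.7% ± 1.51 in CD87 negative cells (SD, n = 2 each), a difference of 0.414 percentage points (exact permutation test, two-sided, p = 1). With LOC672857 left out of the sum, the difference was -0.278, at 15.7% and 16.2% against 15.5% and 17.03%. Without CD87 negative library 1 the difference was -0.653. With related rows added, the shares were 15.2% and 15.9% in CD87 positive libraries, against 13.6% and 16.1% in CD87 negative libraries.

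The ratio of large to small subunit members was similar in all libraries. It sets 45 large against 32 small members, with Rplp0 and Rpl12 not among them, so its value does not itself measure balance. Summed TPM of large subunit members over that of small subunit members was 1.11 and 1.12 in CD87 positive libraries, against 1.07 and 1.10 in CD87 negative libraries. The groups did not overlap, with a difference of 0.0303, and the exact permutation test gave p = 0.333, the smallest that 2 against 2 allows. With related rows the ratio was 1.13 and 1.19, against 1.10 and 1.13, and the groups overlapped. Over the 5 members without related rows it was 1.92 and 2.16, against 1.62 and 2.21, and the groups overlapped too.

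No single member passed the test. On log2(TPM + 1), limma over 12715 genes called 0 of 76 tested members higher and 0 lower at an adjusted p of 0.05, against 0.0236% of all genes higher and 0.0% lower. At an unadjusted p under 0.05, limma gave 2 members higher and 1 lower, against 3.37% and 1.58% of all genes. Of the 2 higher, Rpl3 passed the filter on low values only through the CD87 positive libraries. It could only come out higher and without overlap, and the counts and medians of own rows here and below include it. Differences were small: 68 of 76 lay within 0.5 of 0 on the log2 scale. The middle 50% of members ran from -0.01 to 0.21, against -0.39 to 0.37 for all tested genes. This fit had no block on the library number, since the labels do not say whether libraries of the same number are paired. With that block, limma called 2 members higher and 2 lower, against 84 and 46 of all 12715 genes.

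Most differences of the members were above 0, and this depended on which libraries were kept and on the scaling. The difference was above 0 for 56 of 76 members (51% of all tested genes), with a median of 0.108 against 0.015 for all tested genes. Large subunit members had a median of 0.125 with 32 of 44 above 0, and small subunit members 0.078 with 24 of 32 above 0. CD87 negative library 1 was the lowest library for 59 of 77 members and lay below CD87 negative library 2 for 70. Without CD87 negative library 1, 28 of 76 members were above 0 and the median was -0.073. Of all 12715 tested genes, 5952 were then above 0, with a median of -0.045. Without CD87 positive library 2, 37 members were above 0, with a median of -0.007. Of all tested genes, 7663 were then above 0, with a median of 0.098. Without CD87 positive library 1, 64 members were above 0 (median 0.168), and without CD87 negative library 2, 68 were (median 0.264). In these 2 settings, 6165 and 6870 of all tested genes were above 0, with medians of -0.036 and 0.065. Rescaling without LOC672857 also brought the unequal sums of the other rows to the same total in each library. It left 37 of 76 above 0, with a median of -0.004 against -0.094 for all tested genes. After quantile normalization 31 were above 0, with a median of -0.039 against -0.008, and centred on the library median 44 were, with a median of 0.039 against -0.054. The libraries of the groups did not overlap for 11 members that were higher in CD87 positive cells and 3 that were lower, against 20.4% and 14.5% of all tested genes. These counts were 11 higher and 14 lower when rescaled without LOC672857, against 2164 and 2307 of all 12715 tested genes. They were 8 and 15 after quantile normalization, against 2221 and 2413 of all tested genes. Centred on the library median they were 8 and 7, against 2068 and 2439.

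**Figure D3:**
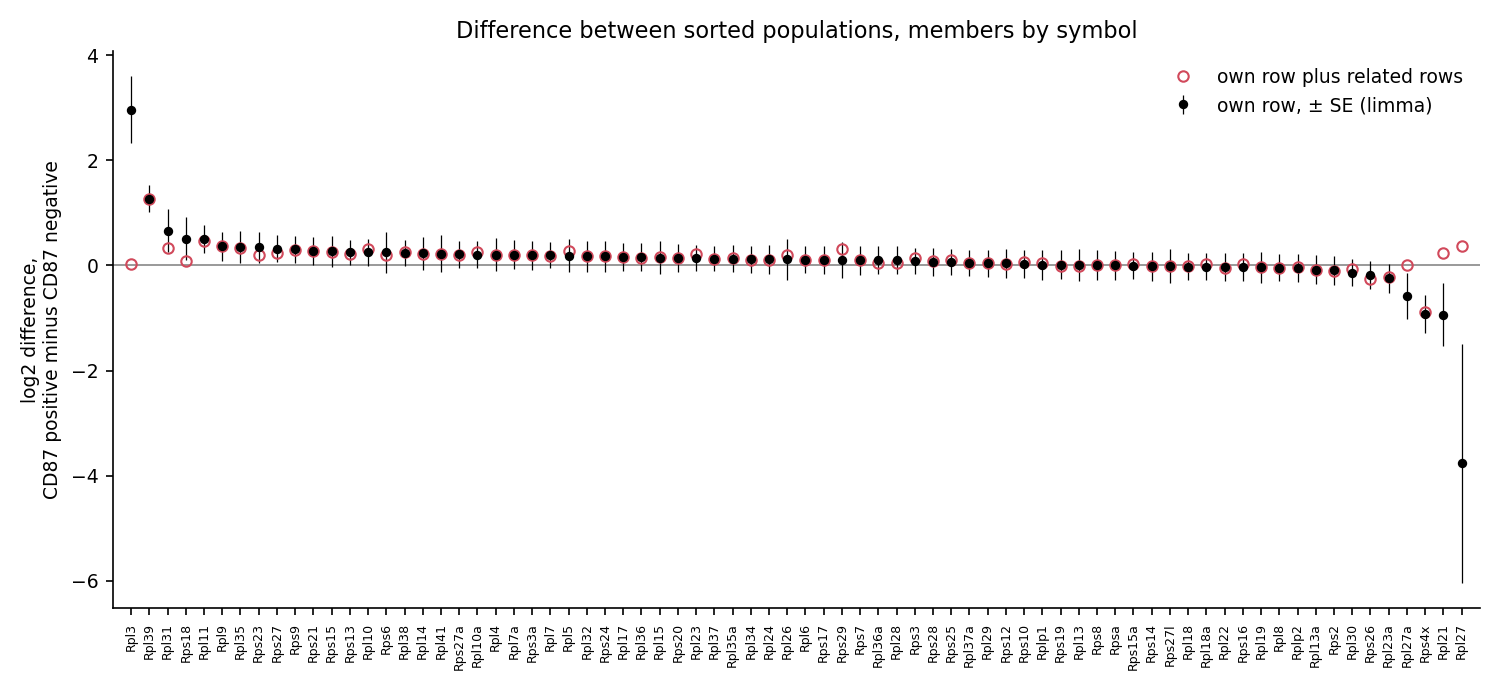
Difference of 74 of the 76 tested members on the log2(TPM + 1) scale, CD87 positive minus CD87 negative, for own rows (filled points, bars are the limma SE) and for own rows plus related rows (open points), in falling order of the own rows. No member passed limma's adjusted threshold, and the differences of Rpl3, Rpl27 and Rpl21 in own rows shrink or turn in the sums. The points of Rpl39 and Rps4x nearly coincide, since own rows held 100% and 97.5% of their sums.

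Among proteins of the large subunit, Rpl39, which lines the peptide exit tunnel and is X-linked, had the smallest p. It read 322 and 441 TPM in CD87 positive libraries, against 157 and 154 TPM in CD87 negative libraries. All CD87 positive values lay above all CD87 negative ones, with a log2 difference of 1.27 (SE 0.257, limma adjusted p = 0.483). Rpl3 read 10.1 and 7.21 TPM in CD87 positive libraries, against 0.50 and 0 TPM in CD87 negative libraries. It passed the filter on low values only through the CD87 positive libraries and so had to differ, and its log2 difference of 2.97 became 0.02 with related rows summed. Rpl27 was listed at 591 and 0 TPM in CD87 positive libraries, against 188 and 578 TPM in CD87 negative libraries. Its identical copy Rpl27-ps3 read 639 and 1116 TPM, against 527 and 597 TPM, so that the library with Rpl27 at 0 had the highest value of the copy. The log2 difference of Rpl27 was -3.76 alone, 0.36 with related rows and 0.84 without CD87 positive library 2. For the short rows of Rpl21 and Rpl27a, log2 differences of -0.94 and -0.58 became 0.23 and 0.01 in the sums.

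Rpl5 and Rpl11, which join 5S rRNA in a particle that can bind Mdm2, had log2 differences of 0.18 and 0.50. Rpl11 read 687 and 785 TPM in CD87 positive libraries, against 442 and 609 TPM in CD87 negative libraries, and the groups did not overlap. It kept 0.47 with related rows. Of the stalk, Rplp1 differed by 0.01, Rplp2 by -0.06 and Rplp0 (the row Arbp) by -0.13. Rplp1 turned to -0.10 with LOC672857 left out of the scaling. Over 9 listed proteins of the exit tunnel and rim the median was 0.16 with 6 above 0. Over 5 of the core, which include Rpl3, it was 0.21 with 4 above 0. Over all 76 tested members it was 0.108 with 56 above 0.

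Among proteins of the small subunit, the X-linked Rps4x had the largest negative difference. It read 118 and 54.2 TPM in CD87 positive libraries, against 140 and 168 TPM in CD87 negative libraries. The groups did not overlap, and the log2 difference was -0.93 (SE 0.368, limma adjusted p = 0.863). Rps27a, made as a fusion with ubiquitin, read 1000 and 1146 TPM in CD87 positive libraries, against 876 and 978 TPM in CD87 negative libraries, and Rps27 read 1187 and 1098, against 811 and 1028 TPM. Their log2 differences were 0.21 and 0.32 with no overlap between groups. With related rows, Rps27a was at 0.20, still without overlap, while Rps27 was at 0.23 and overlapped, at 1281 and 1182 TPM in CD87 positive libraries, against 894 and 1230 TPM in CD87 negative libraries. Rps27l, the p53-responsive paralog of Rps27, read 249 and 469 TPM in CD87 positive libraries, against 354 and 338 TPM in CD87 negative libraries. Rps18 differed by 0.51 alone and 0.08 with related rows, and Rps6 by 0.25. Over 6 listed proteins of the decoding and tRNA sites the median was 0.17, and over 7 of the mRNA entry and exit it was 0.00. Of 10 genes whose human counterparts are mutated in Diamond-Blackfan anaemia, 9 were above 0 with a median of 0.11. Among all 76 tested members it was 56, with a median of 0.108. None of the members in these role lists passed the test in either direction.

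Summing each member with its related rows left 0 of 76 called by limma. Of the sums, 60 of 76 were above 0 (51% of all rows tested that way), and the groups did not overlap for 13 higher in CD87 positive cells and 2 lower, against 20.4% and 14.4%. The 2 lower were Rps4x at -0.89 and Rps26 at -0.25. The related row of Rpl39 was at 0 TPM in all 4 libraries and those of Rps4x held little, so that their sums had little room to differ from their own rows.

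The 4 X-linked members did not move together. Rpl39 differed by 1.27, Rpl10 by 0.25, Rpl36a by 0.10 and Rps4x by -0.93. Of their autosomal paralogs, Rpl39l read 215 and 212 TPM in CD87 positive libraries, against 159 and 167 TPM in CD87 negative libraries, without overlap (log2 difference 0.39). Rpl10l, which is needed for meiosis in male mice, read 152 and 267 TPM in CD87 positive libraries, against 137 and 168 TPM in CD87 negative libraries. Rps4l read 326 and 561 TPM, against 320 and 421 TPM, so its lowest value was above the highest value of Rps4x. In TPM, Rpl10l lay below Rpl10 in every library, and Rpl39l lay below Rpl39 in the CD87 positive libraries.

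Other lists of the translation machinery also had 0 genes called by limma at the adjusted threshold. At an unadjusted p under 0.05, limma gave 1 ribosome biogenesis factor, 1 RNA polymerase gene, 2 elongation or termination factors, 1 gene of the integrated stress response and 3 mitochondrial ribosomal proteins, against 3.37% of all genes higher and 1.58% lower. Of all tested genes, 51% were above 0. Ribosome biogenesis factors were above 0 for 36 of 48 (median 0.14), further mRNAs with a TOP motif for 18 of 21 (0.17), and mitochondrial ribosomal proteins for 46 of 75 (0.14). Initiation factors were above 0 for 17 of 30 (0.07), elongation and termination factors for 7 of 10 (0.13), and RNA polymerase I and III machinery for 9 of 17 (0.10). Regulators of TOP mRNAs and mTORC1 were above 0 for 6 of 14 (-0.16), and genes of the integrated stress response for 5 of 11 (-0.34). Eef2k, the kinase that inhibits elongation factor eEF2, read 8.42 and 6.38 TPM in CD87 positive libraries, against 14.7 and 19.1 TPM in CD87 negative libraries (log2 difference -1.09). Brix1, a factor of large subunit assembly, read 35.02 and 80.77 TPM, against 19.55 and 32.05 TPM (log2 difference 1.06). Neither passed limma's adjusted threshold.

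Markers of somatic cells differed between the same libraries. The summed level of 15 macrophage and leukocyte markers was 188 and 167 TPM in CD87 positive libraries, against 12.6 and 8.50 TPM in CD87 negative libraries. All 8 tested were higher, but 6 of them passed the filter on low values only through the CD87 positive libraries and so had to be higher. Of the list, 7 of 15 were at 0 in both CD87 negative libraries. Lyz2, the lysozyme of macrophages, passed the test (limma adjusted p = 0.0128). The summed level of 13 Sertoli cell markers was 193 and 106 TPM, against 204 and 285 TPM, with 2 of 12 tested above 0. Their part in the results on ribosomal proteins was not tested.

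In the single cells, levels were given as CPM, expected counts per 1000000 of a cell's total, which ranged from 182163 to 6802787 with a median of 1585930. CPM is not scaled for length, so differences between clusters were taken within a gene. Shares and subunit ratios of counts add genes of unlike length and depend on it. Levels of a gene set beside those of its copy can depend on it too. Most members were present in every cell. Of 77 members, a cell had 62 to 74 with an expected count of at least 1, with a median of 71, and 59 members were present in all 71 cells. The other 18 included the members whose related rows took most of the signal. Rps29 was present in 1 of 71 cells (1.41%, exact Clopper-Pearson 95% interval 0.0357 to 7.60, counting error only), while its identical copy Gm14303 had a median of 185 CPM and was present in 71. Rps27 was present in 7 and Rpl10a in 9 cells, while the identical Rps27rt and Rpl10a-ps1 had medians of 304 and 262 CPM. Rpl21 was present in 33, Rps6 in 42, Rpl15 in 51, Rpl28 in 53, Rpl31 in 58, Rpl10 in 60, Rpl3 and Rpl27a in 62 and Rpl17 and Rps4x in 64 cells. Rpl23a, Rpl39 and Rps27l were present in 69 cells and Rps26 in 70. Summed with related rows, 74 members were present in every cell, and the exceptions were Rpl3l in 6 cells, Rpl39 in 69 and Rps27l in 69. In the sorted libraries, which were quantified with another tool, the own rows of Rps27 and Rpl10a were the higher ones of their pairs, with means of 1031 TPM against 112 TPM for Rps27rt and 731 TPM against 132 TPM for Rpl10a-ps1. For Rps29 the copy was higher in both tables, with a mean of 170.4 TPM against 1107 TPM for Gm14303 in the sorted libraries.

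The share of a cell's counts in the members was similar in the clusters. Medians were 1.64% in Cluster I (9 cells, 1.11% to 2.19%), 1.64% in Cluster II (32 cells, 1.08% to 2.63%), 1.90% in Cluster III (24 cells, 0.911% to 3.20%) and 2.02% in Cluster IV (6 cells, 1.02% to 2.45%). The cells of all clusters overlapped, and the gap between medians was of the order of the SD within clusters, 0.296 to 0.532. With related rows the medians were 2.76%, 2.91%, 3.14% and 3.26% in Clusters I to IV. After each cell was thinned to 182150 counts they were 1.67%, 1.65%, 1.90% and 2.02%. In cells with at least 1000000 counts, they were 1.64%, 1.66%, 1.92% and 2.22%. The ratio of large to small subunit counts had medians of 1.22, 1.19, 1.24 and 1.21. The 71 cells differ in depth, and the labels do not say how many captures they came from. Across them, the share had a Spearman correlation of 0.364 with a cell's total count and of 0.103 with the germ cell gene Ddx4.

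**Figure D4:**
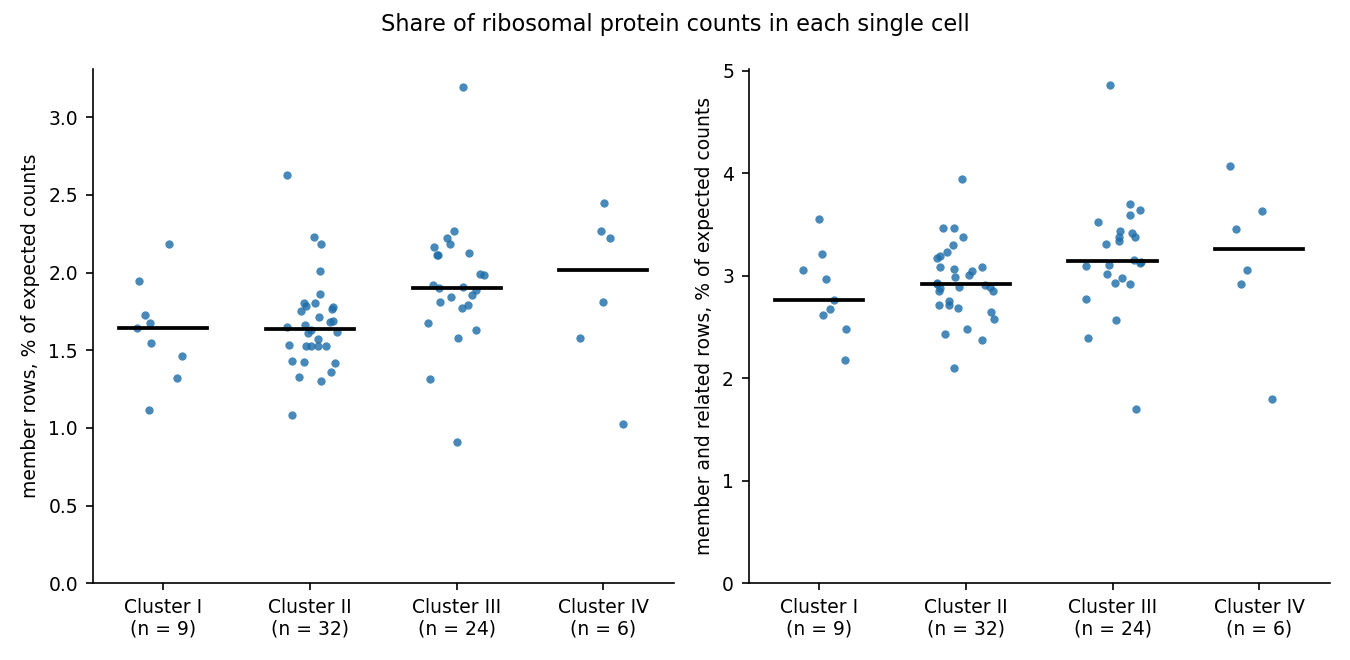
Share of a cell's expected counts, in percent, in the 77 member rows (left panel) and in member and related rows (right panel), for Clusters I to IV. Points are cells, bars are medians, and the cells of the clusters overlap in both panels.

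Single members differed between clusters in their own rows, and many of these differences shrank in the sums with related rows. With a 1.5-fold difference between the median CPM of a cluster and of all other cells (1 CPM added) as the limit, 0 of 72 members with a mean of at least 5 CPM were higher and 8 lower in Cluster I, against 11.8% and 35.3% of all 10829 such rows. In Cluster II it was 4 higher and 2 lower (30.3% and 5.38% of all rows), in Cluster III 5 and 0 (15.5% and 17.9%), and in Cluster IV 8 and 4 (18.4% and 34.7%). In Cluster III, 67 of 72 members were above 0, against 44.4% of all rows, with a median of 0.22 against 0.00. In Clusters I, II and IV, 19, 18 and 46 members were above 0, against 31.8%, 65% and 36.8%. With related rows summed, 0, 1, 0 and 1 of 76 were higher in Clusters I to IV, against 11.9%, 30.5%, 15.5% and 18.5% of all 10716 such rows, and 3, 0, 1 and 4 were lower, against 35.5%, 5.41%, 18.1% and 35%. In the sums, 67 of 76 members were still above 0 in Cluster III, with a median of 0.16.

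In Cluster I, Rpl22, an RNA-binding large subunit protein, and Rpl36 were 0.44 and 0.29 above the other cells on the log2 scale, and Rpl21 0.77 at under 1 CPM. Rps4x, Rpl10 and Rps6 were furthest below at -4.47, -2.69 and -2.48, sizes that depend on the 1 CPM added. Rps6 had a median of 0 CPM and was present in 2 of 9 cells. With related rows the differences of Rpl10 and Rps6 were -0.54 and -0.29, and that of Rps4x was -2.47. In Cluster II, Rpl15 (1.20), Rpl39 (0.76) and Rpl28 (0.74) were furthest above and Rpl17 (-0.94), Rpl23a (-0.67) and Rps15a (-0.47) furthest below. Of these 6 values, Rpl39 kept 0.63 in the sums, and Rpl15, Rpl28, Rpl17, Rpl23a and Rps15a lay at 0.02, 0.09, -0.19, 0.00 and -0.41.

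In Cluster III, Rpl10 (1.10), Rpl23a (1.06) and Rpl17 (1.04) were furthest above, and at 0.12, 0.18 and 0.15 in the sums. Rpl39 (-0.51) and Rpsa (-0.14) were lowest, and the sum of Rpl21 and its copies stood at -0.84. In Cluster IV, Rpl28 (1.04), Rpl3 (1.01) and Rpl17 (0.85) were furthest above, at -0.05, 0.47 and 0.41 in the sums. Rpl15 was present in 2 of 6 cells of Cluster IV with a median of 0 CPM, against 51 of all 71 cells, while its sum with related rows differed by 0.01. Rpl39 and Rps4x differed by -1.63 and -1.32, and their sums by -1.63 and -1.18. Rps27l, which has no related row, differed by -1.06.

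The X-linked Rps4x and Rpl39 varied between clusters. Rps4x had median levels of 1.52, 56.2, 59.7 and 19.4 CPM in Clusters I to IV, and was present in 6 of 9, 31 of 32, 23 of 24 and 4 of 6 cells. Its highest value in Cluster I was 161 CPM, above the highest of the other clusters. Rpl39 had medians of 49.4, 57.2, 35.4 and 17.1 CPM, with cells of Cluster IV between 0.687 and 42.6 CPM. The ranges of the clusters overlapped for both genes. Rpl10 had medians of 2.65, 17.8, 35.5 and 28.4 CPM in its own row, and of 113, 157, 170 and 189 CPM with related rows.

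Their autosomal paralogs followed other orders. Rps4l had medians of 253, 334, 326 and 357 CPM in Clusters I to IV and was present in all 71 cells. Rpl10l had medians of 116, 131, 106 and 61.6 CPM, and Rpl39l of 104, 87.8, 115 and 72.7 CPM. None of these 3 was highest in the cluster where its X-linked partner was lowest.

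**Figure D5:**
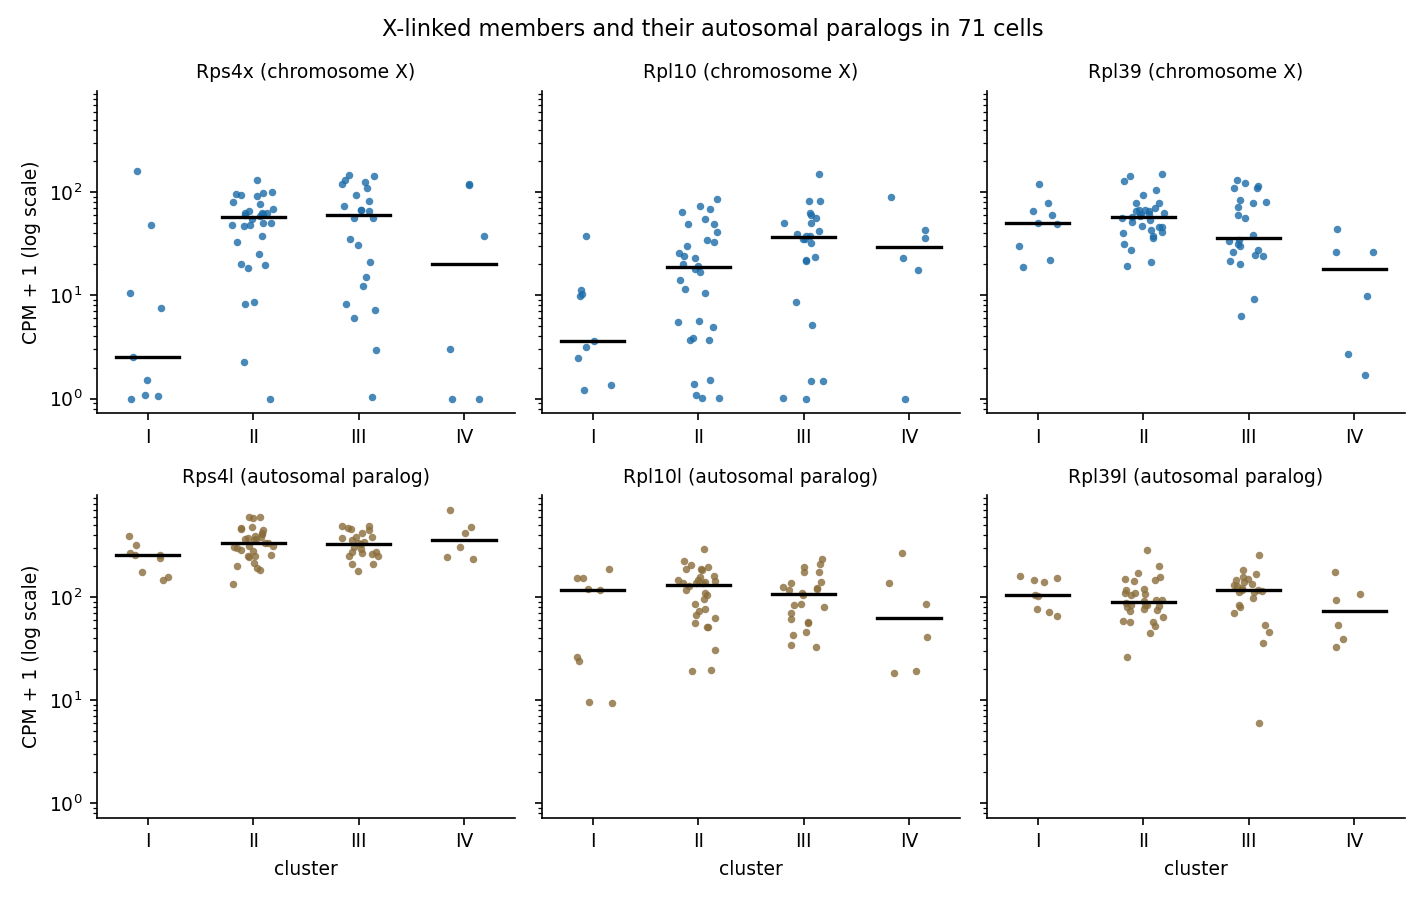
CPM + 1 (log axis) of the X-linked Rps4x, Rpl10 and Rpl39 (upper row) and of their autosomal paralogs Rps4l, Rpl10l and Rpl39l (lower row) in single cells of Clusters I to IV. Points are cells and bars are medians, and the medians of Rps4x and Rpl10 are lowest in Cluster I and that of Rpl39 in Cluster IV, while those of Rps4l lie between 253 and 357 CPM.

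Across cells the members varied together. The Spearman correlation of a member's CPM with the share of all other members had a median of 0.565 over 72 members, and 64 of them (88.9%) were over 0.3. Over 10757 other rows with a mean of at least 5 CPM, not matched to the members in level, the median was -0.011, with 3.42% over 0.3. Over the 117 related rows among those, the median was 0.272, with 47.01% over 0.3. All values come from the same 71 libraries and share their depth. The lowest were Rps6 with -0.08, Rpl15 with -0.06 and Rpl31 with 0.00, all of which had most of their signal in related rows in these cells, and Rpsa, the laminin receptor precursor, with 0.02. Rplp2 had 0.78. Of the 10 rows outside the members with the highest correlation, 7 were related rows: Rps15a-ps7 (0.83), Rps15a-ps8 (0.80), the Rpl23 copy Gm9794 (0.75), the Rpl26 copy Gm15772 (0.71), Rps27a-ps2 (0.69), Rps15a-ps5 (0.66) and Rps27a-ps3 (0.64). The others were Micos10 (0.66), of the mitochondrial cristae complex, Hspe1 (0.66), the mitochondrial chaperonin 10, and LOC667739 (0.64), which had no RefSeq match.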

How the data were processed

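The TPM values of the sorted cells are as deposited, made by the authors with Trim Galore and RSEM, per the submitters' processing notes. The expected counts of the single cells are as deposited too, made by the authors with Trim Galore and Salmon, per those notes. Both used build mm9. Tool versions were not given in the sources used here, nor was the annotation. Single-cell totals left out 22 rows whose names had become dates, at most 0.609% of a cell. Expected counts were turned into CPM and not used in a count model.

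CD87 groups were compared with limma 3.58.1 (R 4.3.3, empirical Bayes with trend, two-sided) on log2(TPM + 1), for 12715 genes with at least 1 TPM in at least 2 libraries and Benjamini-Hochberg adjustment over all of them at 0.05. The log2(TPM + 1) scale understates changes of low genes. The procedure was also run on values simulated from its own fitted variances, drawn independently for each library. That run cannot show how it behaves with an outlying library or with paired libraries. Related rows were found with blastn 2.17.0+ or by RefSeq name. Of 284 listed symbols, 236 matched directly, 42 through older symbols and 6 not at all. RefSeq and GENCODE sequences of GRCm38 were used for names and sequence only, never with mm9 coordinates.

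Genes were named by a rule: the 5 highest, 5 lowest and 5 most positive and negative members, listed roles, and in cells the 3 extremes per cluster, members absent from a cell and the 10 most correlated rows. Some of the genes this rule gives are not reported here. The members and lists were chosen with earlier results of these data known. Other scalings, pseudocounts, filters, a replicate block and left-out libraries were tried.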

Additional observations from a re-analysis of the deposited data

How the results depend on the processing

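No member was called by limma under any pseudocount, filter, scaling, trend or leave-one-out setting. Calls over all genes, 3 as reported, were 1 with a pseudocount of 0.1, without the filter, or rescaled without LOC672857 (with or without the ribosomal protein rows), and 0 without the trend or any 1 library, where the lone library is assumed to vary like the other group. Each library number is shared by a CD87 positive and a CD87 negative library, and the labels do not say what it stands for. The differences between the 2 libraries of a group had a correlation of 0.0675 between the groups, over all tested genes. This single value cannot settle whether libraries of the same number are paired. A replicate block gave 130 calls (84 higher, 46 lower) and 4 members: Rpl3 and Rpl39 higher, Rps4x and Rpl27 lower.

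Leaving out each library moved the member median between -0.073 and 0.264, the share difference between -0.653 and 1.48 (-0.278 without LOC672857 in the sum) and the subunit ratio difference between 0.0155 and 0.0452. Of 21 named members, these changed sign in that range: Rpl27 -8.37 to 0.84, Rpl41 -0.13 to 0.57, Rpl5 -0.22 to 0.59, Rplp1 -0.10 to 0.13, Rplp2 -0.15 to 0.039, Rps14 -0.13 to 0.10, Rps18 -0.13 to 1.14, Rps2 -0.22 to 0.030, Rps27l -0.47 to 0.44 and Rps6 -0.11 to 0.61. Rplp1 was -0.10 under both rescalings, -0.054 centred and -0.066 quantile-normalized, and Rps14 0.021 quantile-normalized. Summed with related rows, Rpl21 was 0.23, Rpl27 0.36 and Rpl27a 0.013. Rescaling without LOC672857 and the ribosomal protein rows set the median of all genes to -0.101 and of members to -0.009, so the gap between them was 0.09, as in the values as deposited, but quantile normalization put members at -0.039, below the -0.008 of all genes. The cause of these changes was not tested.

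In cells, the share was 0.133% over all cells and 0.130%, 0.132%, 0.130% and 0.139% in Clusters I to IV for members without related rows, and 3.01%, 2.76%, 2.91%, 3.14% and 3.26% with related rows summed. The subunit ratio of Cluster IV was 1.11 without members that have related rows. Members past 1.5-fold, higher in Cluster I, were 1 with a mean of at least 1 CPM and 2 after thinning. The shares of all rows in these settings were 10.6% and 12.6%. With means in place of medians, 5 were lower in Cluster I, 0 higher and 1 lower in Cluster II, 2 higher in Cluster III and 3 higher in Cluster IV, against 30.3%, 12.2%, 12.2%, 12.3% and 19.3% of all rows. At 2-fold, the counts were 5 lower in Cluster I, 1 higher and 0 lower in Cluster II, 3 higher in Cluster III and 2 higher in Cluster IV, against 23.8%, 16.9%, 2.04%, 7.56% and 11.2%. With related rows summed, the counts past 1.5-fold were 3 lower in Cluster I, and 1 higher and 0 lower in Cluster II. In Cluster III they were 0 higher and 1 lower, and in Cluster IV 1 higher. In the same order, the shares of all rows were 35.5%, 30.5%, 5.41%, 15.5%, 18.1% and 18.5%. Thinning gave 1 lower in Cluster III, against 17.3% of all rows.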
